A study of Mus musculus with 14 samples.

Results

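The hearts of ICR mice that received a virus for YAP5SA were compared with hearts of mice that received none, across all expressed genes. The contrast sets 3 libraries labelled YAP5SA against 5 labelled Control, 8 of the 14 of the series, chosen by their column labels with the batch label as a covariate, and the remaining libraries entered the fit for its spread and batch terms. Of 54446 genes in the count table, 17987 passed the filter on low counts and were tested. YAP5SA mice, wild type but for the virus, were injected intraperitoneally on postnatal day 7 with AAV9:cTnT-YAP5SA at 1E11 genome copies. The adeno-associated virus carries YAP5SA behind a cardiac troponin T promoter, which is active in cardiomyocytes. Control mice were wild type ICR animals of the same ages and got no AAV, so virus and transgene came together in this comparison and cannot be told apart. All hearts were collected on day 12, 5 days after injection. Nuclei were enriched for PCM1, a centriolar satellite protein that gathers around cardiomyocyte nuclei, and RNA was read as polyA-selected, non-directional libraries. ICR mice are outbred. Whether the libraries came from different animals is not in the labels, and the p-values cover only their spread, which may be technical.

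YAP is a transcriptional co-activator that does not bind DNA itself and works through the TEAD factors. The kinases of the Hippo pathway phosphorylate it, which holds it in the cytoplasm and marks it for destruction. In YAP5SA the serines that the kinases act on are replaced by alanine, so the protein escapes this brake. In the heart, YAP activity is high while cardiomyocytes still divide and is held low in mature ones, and active YAP is known for cytoskeletal and matrix genes and for renewed growth.

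The libraries held 17663337 to 18927531 counts in YAP5SA and 16171068 to 24027622 in Control. Genes of chromosome M took 3.80%, 6.77% and 32.2% of counts in YAP5SA libraries 1 to 3, against 60.7%, 67.5%, 5.54%, 6.34% and 13.9% in Controls 1 to 5. Controls 1 and 2, the Controls of batch 1, thus stand apart, and YAP5SA 3 does so less. YAP5SA 1 and 2 were in batch 1, and YAP5SA 3 and Controls 3 to 5 in batch 2. Xist and Y-chromosome counts marked Controls 4 and 5 as female and the other Controls and all YAP5SA libraries as male. All 12 cardiomyocyte markers were detected, and their summed level was 32260 to 48020 CPM, that is counts scaled to a common library size, in YAP5SA and 57800 to 100100 CPM in Control.

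A gene is called changed here at an adjusted p under 0.05 in edgeR's quasi-likelihood test. The test called 1773 genes (9.86% of those tested), of which 1023 were higher in YAP5SA (5.69%) and 750 lower (4.17%), and 4563 genes had an unadjusted p under 0.05. Fitted on the 8 YAP5SA and Control libraries alone, it called 702 genes, 456 higher and 246 lower. The higher calls reached further. By more than 1 on the log2 scale 768 genes rose and 432 fell, and by more than 3, 187 rose and 22 fell. The median log2 fold change was 1.44 among the higher calls, -1.09 among the lower calls and 0.06 over all genes tested. Rises outnumbered falls among weakly counted genes: in the lowest of 4 equal groups of genes by mean log2 CPM 75 were called higher and 6 lower, and in the highest group 377 and 467. These means are over all 14 libraries, so a gene high only with YAP5SA can pass the filter and still average low. A gene lowered with YAP5SA keeps its level in the libraries without it. The grouping can thus give such an imbalance by itself, and its part was not tested. Of the 1023 genes called higher, 146 averaged under 1 CPM in the Controls, and 53 of them had no count in any Control. Among all 17987 genes tested, 4433 averaged under 1 CPM in the Controls, a larger share. The genes called higher made up 80996 CPM in YAP5SA and 34015 CPM in Control, summed over group means, and the genes called lower made up 70095 CPM in YAP5SA and 144521 CPM in Control.

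**Figure D1:**
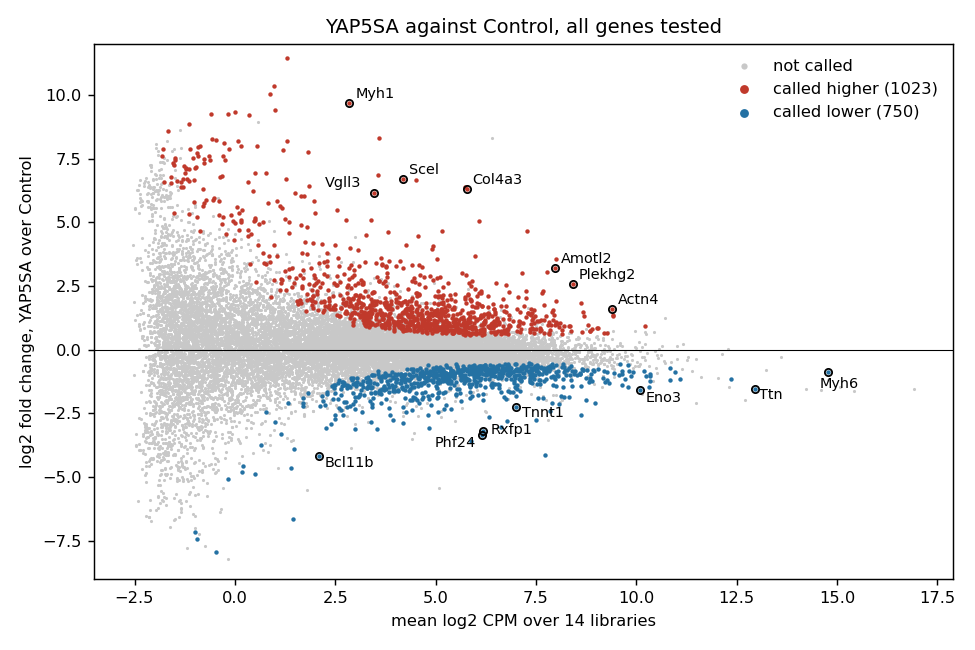
Log2 fold change of YAP5SA over Control (vertical axis) against mean log2 CPM over the 14 libraries in the fit (horizontal axis), a point a gene. The 1023 genes called higher reach above 9 at low levels and the 750 called lower crowd near -1 at high levels, with the named genes ringed.

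The 3 YAP5SA libraries did not respond equally. In 800 of the 1023 higher calls (78.2%) all YAP5SA libraries lay above all Controls, and in 544 of the 750 lower calls (72.5%) all lay below. Over all genes tested, 1530 separated upward in this way and 923 downward. Set against the mean of the Controls in the same batch, the genes called higher had a median log2 difference of 1.75 in YAP5SA 1, 1.09 in YAP5SA 2 and 1.57 in YAP5SA 3, and the genes called lower had -1.30, -0.66 and -1.39. YAP5SA 2 was the lowest of the 3 in 793 of the 1023 rises and the highest in 643 of the 750 falls. It was thus nearest to the Controls in most changes of either sign. These genes were chosen with the same libraries, so the values describe the size of the response and are no test of it.

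Single libraries decide many calls. Called in the same direction in each of the 8 fits that drop 1 library were 389 genes, 283 higher and 106 lower. The test called 692 genes with YAP5SA 1 dropped, 2998 with YAP5SA 2 dropped and 544 with YAP5SA 3 dropped. Without Controls 1 and 2 it called 2050, of which 1201 were higher (6.73%) and 849 lower (4.75%), and 1069 of the 1773 calls were among them in the same direction. Genes reported below whose calls were lost in that fit include Actn4, Fmn1, Peg3, Tead1, Tead4, Stk4, Pard6b, Dsp, Itga5, Anxa4, Hbegf and Nppb. Nova1, Cdkn1a, Nr3c1, Cacna1c, Pde4a, Tek, Muc16, Asb2, Sept4, Fgfrl1 and Hcn2 were lost too (adjusted p 0.053 to 0.346 over these genes). Without Controls 1 and 2 and YAP5SA 3, which leaves 2 libraries of batch 1 against 3 of batch 2, the test called 75 genes (57 higher, 0.325%, and 18 lower, 0.103%). Of the 1762 calls that could be fitted there, 1743 kept their direction and 69 were called. The 45 higher and 12 lower genes that were called in all of these fits include Scel, Col4a3, Col4a4, Col12a1, Vgll3, Wwc1, Amotl2, Arhgef16, Plekhg2 and Tgfb2 among the rises and Phf24, Syt7, Asph and Ndrg4 among the falls. Within batch 1, with 2 libraries against 2, 949 genes were called higher (5.84%) and 569 lower (3.50%). Falls also lean on the scaling of the libraries. With library totals in place of TMM factors, which align the bulk of genes between libraries, 1703 genes were called higher (9.47%) and 33 lower (0.183%), the median of all genes is 0.69, 986 of the 1023 higher calls stay and 32 of the 750 lower calls do, and 1023 and 595 stay with totals that leave out mitochondrially encoded genes, where that median is 0.19, 8.05% of genes were called higher and 3.41% lower. All values below use TMM factors, and a fall is a fall relative to the bulk of genes.

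**Figure D2:**
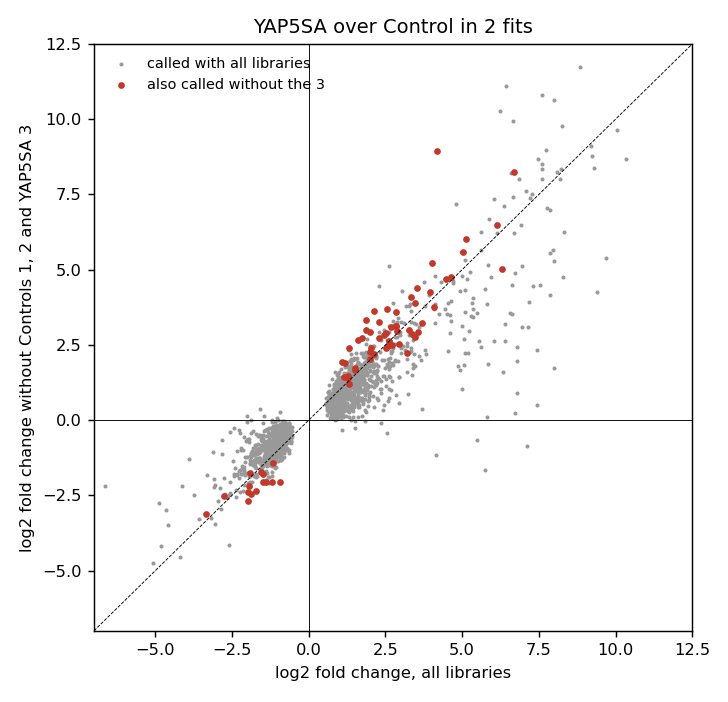
Log2 fold change of YAP5SA over Control with all libraries (horizontal axis) and without Controls 1 and 2 and YAP5SA 3 (vertical axis), for the 1762 called genes that both fits hold. Red points are the 69 genes called in both, and the dashed line marks equal values. Without the 3 libraries 1342 values are nearer to 0 or of the other sign, and the median ratio to the value with all libraries is 0.773.

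The mouse genes of YAP and its partners come first. Endogenous Yap1 had 51.7, 76.3 and 39.3 CPM in YAP5SA libraries 1 to 3, against 68.5, 60.9, 49.9, 63.5 and 77.3 CPM in Controls 1 to 5. The groups overlap, and Yap1 did not pass (log2 fold change -0.30 ± 0.20 SE, adjusted p = 0.389); reads of the transgene may not map to this locus, so its level is no check of the labels. Wwtr1, which encodes the YAP paralog TAZ, did not pass either (0.02 ± 0.45, adjusted p = 0.988). Of the DNA-binding partners, Tead1 rose (0.67 ± 0.19, adjusted p = 0.0345), with 384, 242 and 264 CPM in YAP5SA libraries 1 to 3, against 145, 212, 225, 184 and 171 CPM in Controls 1 to 5. All YAP5SA libraries lay above all Controls. Tead4 rose too (1.76 ± 0.42, adjusted p = 0.0126), with 9.38 to 13.6 CPM in YAP5SA and 2.28 to 4.54 CPM in Control. Tead2 and Tead3 did not pass (Tead2 -0.83 ± 0.31, adjusted p = 0.0973 and Tead3 0.81 ± 0.26, adjusted p = 0.0576). When 1 library was left out, the call missed the threshold without YAP5SA 1 for Tead1 and Tead4 (adjusted p 0.0597 to 0.209), without YAP5SA 3 for Tead1 and Tead4 (adjusted p 0.0645 to 0.108), without Control 1 for Tead1 (adjusted p = 0.105), without Control 4 for Tead1 (adjusted p = 0.0597) and without Control 5 for Tead1 (adjusted p = 0.0609).

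The vestigial-like cofactors compete with YAP for TEAD or act beside it. Vgll3, a member known for roles in muscle and fibroblasts, had 53.5, 14.4 and 36.9 CPM in YAP5SA libraries 1 to 3, against 0.680, 0, 0.816, 0.134 and 1.19 CPM in Controls 1 to 5. Every YAP5SA library was far above every Control, the rise was among the 12 largest named (6.15 ± 0.64, adjusted p = 5.07e-05), and it was called in every fit that left libraries out. Vgll2 had no count in any Control and 0.0881 to 1.05 CPM in YAP5SA, at least 2.02-fold over a floor of 3 counts per Control library, and did not pass (adjusted p = 0.0700). Vgll4, a repressor of TEAD, did not pass (1.30 ± 0.47, adjusted p = 0.0831). In all, 3 of the 9 tested core genes were called, each higher.

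Upstream, 6 of 24 Hippo kinases, scaffolds and YAP-binding proteins were called (25%), each higher, with a median of 0.33. The scaffold Wwc1, also named KIBRA, which promotes Hippo kinase activity, had 78.5, 45.1 and 41.3 CPM in YAP5SA libraries 1 to 3, against 1.81, 2.35, 5.63, 2.32 and 4.39 CPM in Controls 1 to 5. It was low in every Control and at least 41.3 CPM in every YAP5SA library (4.10 ± 0.42, adjusted p = 2.37e-05). Angiomotin-like Amotl2, which binds YAP and holds it at junctions, had 820, 459 and 501 CPM in YAP5SA libraries 1 to 3, against 36.6, 42.1, 95.4, 87.0 and 77.0 CPM in Controls 1 to 5. YAP5SA 2 was the lowest treated library and still far above every Control (3.19 ± 0.35, adjusted p = 6.32e-05). The LIM protein Ajuba, which restrains the LATS kinases, had 139, 121 and 82.1 CPM in YAP5SA libraries 1 to 3, against 27.3, 15.1, 33.5, 28.8 and 32.0 CPM in Controls 1 to 5, again without overlap (1.91 ± 0.31, adjusted p = 0.00131). Its relative Wtip rose (1.25 ± 0.24, adjusted p = 0.00299), as did the giant cadherin Fat1 (1.66 ± 0.27, adjusted p = 0.000865) and the kinase Stk4, the mammalian Hippo kinase MST1 (1.02 ± 0.30, adjusted p = 0.0364). Leaving out a single library, calls were lost without Control 1 for Stk4 (adjusted p = 0.0870), without Control 5 for Stk4 (adjusted p = 0.0504), without YAP5SA 1 for Stk4 (adjusted p = 0.0978) and without YAP5SA 3 for Stk4 (adjusted p = 0.218).

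Among canonical YAP and TAZ targets 13 of 23 tested were called (56.5%), each higher, with a median of 1.46 against 0.06 for all genes. Amotl2 and Ajuba are among these 13 and were also counted among the Hippo genes above. The list was compiled from genes already known to respond to YAP, and earlier results of these data were known. The matricellular proteins CCN2 and CCN1, secreted modulators of growth factors and integrins, are the best known of them. Ccn2 had 551, 176 and 432 CPM in YAP5SA libraries 1 to 3, against 62.6, 37.6, 54.5, 45.9 and 31.6 CPM in Controls 1 to 5. Ccn1 had 413, 97.6 and 280 CPM in YAP5SA libraries 1 to 3, against 60.8, 19.2, 33.1, 50.2 and 42.4 CPM in Controls 1 to 5. Neither gene's groups overlap, and YAP5SA 2 was the lowest treated library for both (Ccn2 3.01 ± 0.39, adjusted p = 0.000558 and Ccn1 2.61 ± 0.48, adjusted p = 0.00631). Ccn2 overlaps Gm15270 on the other strand, and without strand their reads cannot be told apart. Crim1, a transmembrane protein that binds growth factors, had 10.8 to 25.4 CPM in YAP5SA and 1.81 to 3.13 CPM in Control (2.87 ± 0.40, adjusted p = 0.000239). The TGF-beta ligand Tgfb2 had 90.6, 32.7 and 62.6 CPM in YAP5SA libraries 1 to 3, against 11.6, 7.30, 9.43, 6.19 and 8.63 CPM in Controls 1 to 5, with no overlap (2.84 ± 0.29, adjusted p = 1.33e-05). The muscle ankyrin repeat protein Ankrd1, also a textbook target, had 4840, 1970 and 2430 CPM in YAP5SA libraries 1 to 3, against 1200, 834, 2600, 1200 and 753 CPM in Controls 1 to 5. Control 3 reached into the YAP5SA range, and Ankrd1 did not pass (1.26 ± 0.48, adjusted p = 0.119). Calls that rest on 1 library were lost without YAP5SA 3 for Ccn1 (adjusted p = 0.0899).

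The sequences before 6 of the rising genes are shown because each holds ACATTCC, the letters that TEAD factors are known to bind, within the 250 bases upstream of the start. Among 41 rising genes whose promoters were searched in this way 7 held it, and among 20 falling genes 2 did. These genes were picked for the report, some of them as known YAP targets or after their values were seen. A gene counts if any of its promoters holds the letters. The counts are thus no test and cannot be set against the shares of promoters below. The sequences are from the RefSeq promoter table for GRCm38.p6 and run 5′ to 3′ on the strand of the gene. Capitals mark CATTCC on either strand and, in Actn4, also TGANTCA, the AP-1 motif.
Amotl2, chr9:102717554-102717803, plus strand: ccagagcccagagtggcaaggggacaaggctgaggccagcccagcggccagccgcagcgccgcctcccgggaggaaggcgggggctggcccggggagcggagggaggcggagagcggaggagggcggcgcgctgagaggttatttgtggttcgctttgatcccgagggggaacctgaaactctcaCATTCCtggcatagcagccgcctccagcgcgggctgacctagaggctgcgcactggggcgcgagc
Ccn1, chr3:145649986-145650235, minus strand: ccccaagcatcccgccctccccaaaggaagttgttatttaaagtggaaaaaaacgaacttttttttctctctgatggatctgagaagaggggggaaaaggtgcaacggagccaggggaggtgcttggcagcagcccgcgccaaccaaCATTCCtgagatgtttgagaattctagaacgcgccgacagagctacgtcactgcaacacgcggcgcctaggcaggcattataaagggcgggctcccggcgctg
Vgll3, chr16:65814939-65815188, plus strand: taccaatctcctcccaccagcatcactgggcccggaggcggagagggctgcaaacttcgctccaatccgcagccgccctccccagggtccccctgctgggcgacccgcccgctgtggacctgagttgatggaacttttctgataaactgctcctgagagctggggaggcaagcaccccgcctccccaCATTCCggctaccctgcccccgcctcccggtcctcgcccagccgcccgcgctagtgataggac
Ajuba, chr14:54577662-54577911, minus strand: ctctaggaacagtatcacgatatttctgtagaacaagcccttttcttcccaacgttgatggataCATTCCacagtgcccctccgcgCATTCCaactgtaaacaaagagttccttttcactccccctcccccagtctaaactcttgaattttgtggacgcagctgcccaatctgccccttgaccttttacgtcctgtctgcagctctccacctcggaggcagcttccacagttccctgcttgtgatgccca
Plekhg2, chr7:28372663-28372912, minus strand: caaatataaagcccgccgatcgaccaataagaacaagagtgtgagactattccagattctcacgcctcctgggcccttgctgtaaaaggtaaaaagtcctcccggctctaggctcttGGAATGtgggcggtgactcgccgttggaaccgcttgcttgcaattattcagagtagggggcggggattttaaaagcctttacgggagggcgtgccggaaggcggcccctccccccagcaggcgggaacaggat
Actn4, chr7:28962333-28962582, minus strand: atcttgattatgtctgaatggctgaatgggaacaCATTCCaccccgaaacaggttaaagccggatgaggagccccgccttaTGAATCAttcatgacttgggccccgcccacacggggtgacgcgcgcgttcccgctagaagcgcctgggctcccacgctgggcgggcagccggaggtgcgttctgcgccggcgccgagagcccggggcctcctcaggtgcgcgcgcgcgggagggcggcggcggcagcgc

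Ajuba holds 2 copies of CATTCC and the other 5 promoters hold 1 each, at -65 from the start in Amotl2, -63 in Vgll3 and -103 in Ccn1. In Plekhg2 the letters lie on the other strand. CATTCC occurs on either strand in 1779 of the 15704 promoters matched to tested genes (11.3%), and ACATTCC, which contains it, in 2.69%. These promoters cover 12327 of 17984 gene symbols, under 80%, so a comparison of called genes with all genes is void and is not given. The letters also stand upstream of Yap1, which was not called, and of Myh6, which fell. A match describes the sequence and shows no binding.

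Regulators of the small GTPases that set actin and cell shape include an abundant rise. Plekhg2, an exchange factor that activates Rac and Cdc42, had 1040, 547 and 724 CPM in YAP5SA libraries 1 to 3, against 128, 128, 103, 134 and 139 CPM in Controls 1 to 5. The Controls differed little from each other and lay far below every YAP5SA library (2.57 ± 0.20, adjusted p = 7.36e-07). Of 24 Arhgef genes, which encode exchange factors, 6 were called (25%), each higher, with a median of 0.16, and of 34 Arhgap genes, which switch such GTPases off, 3 were called, each higher (8.82%, near the 5.69% of all genes). Without Controls 1 and 2 these counts were 3 higher for Arhgef genes and 7 higher and 1 lower for Arhgap genes. Arhgef16 had 95.6, 67.4 and 63.3 CPM in YAP5SA libraries 1 to 3, against 7.94, 4.17, 2.94, 5.61 and 2.23 CPM in Controls 1 to 5. The groups do not come near to overlap (3.95 ± 0.30, adjusted p = 4.54e-07). Arhgef26 rose as well (3.27 ± 0.35, adjusted p = 2.37e-05), and Arhgap8 and Arhgap23 rose (Arhgap8 3.78 ± 0.56, adjusted p = 0.000432 and Arhgap23 2.21 ± 0.25, adjusted p = 4.62e-05).

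Single cytoskeletal genes rose, and their families were mixed. The crosslinker Actn4, the non-muscle alpha-actinin, had 1550, 760 and 963 CPM in YAP5SA libraries 1 to 3, against 241, 296, 745, 389 and 305 CPM in Controls 1 to 5. Control 3 came close to YAP5SA 2, so the groups only just separate (1.60 ± 0.31, adjusted p = 0.00434). Actn4 was not called without Controls 1 and 2 (1.13, adjusted p = 0.0615). Actn4 overlaps Capn12 on the other strand, which had 0 to 2.77 CPM in the 8 libraries. The spectrin chain Sptan1 rose (1.34 ± 0.19, adjusted p = 0.000319), and so did the formin Fmnl2, which nucleates actin filaments (1.80 ± 0.23, adjusted p = 8.91e-05). Of 22 formins and tropomyosins 4 were called higher (18.2%) and 1 lower, the formin Fmn1 (-1.95 ± 0.35, adjusted p = 0.00245), and of 19 tubulins 1 was called higher and 1 lower, or 4 higher and 0 lower without Controls 1 and 2. Of 16 intermediate filament genes 5 were called (31.2%), each higher. The epithelial keratin Krt7 had 129, 79.3 and 36.9 CPM in YAP5SA libraries 1 to 3, against 2.38, 5.61, 1.59, 5.75 and 2.85 CPM in Controls 1 to 5, without overlap (4.08 ± 0.42, adjusted p = 4.84e-05). Krt80 and Krt19 rose (Krt80 5.76 ± 1.16, adjusted p = 0.00471 and Krt19 2.14 ± 0.44, adjusted p = 0.00510), as did Lmna, which encodes the nuclear lamins A and C (1.17 ± 0.20, adjusted p = 0.00134). A further epithelial gene, Scel, encodes sciellin, a precursor of the cornified envelope. It had 109, 47.0 and 44.4 CPM in YAP5SA libraries 1 to 3, against 0, 2.09, 0.408, 0.269 and 0.462 CPM in Controls 1 to 5. Every Control lay near 0 and every YAP5SA library well above (6.69 ± 0.62, adjusted p = 4.19e-05). Not every call here held when 1 library was dropped: it was lost without YAP5SA 1 for Krt19 (adjusted p = 0.0693) and without YAP5SA 3 for Krt80 (adjusted p = 0.0630).

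Basement membrane genes changed by chain. Of 27 tested, 9 were called higher (33.3%) and 1 lower, with a median of 0.67. Type IV collagen is the network-forming collagen of basement membranes. Its common form is made of the chains of Col4a1 and Col4a2, and another, best known from the kidney filter, of those of Col4a3, Col4a4 and Col4a5. Col4a3 had 234, 112 and 208 CPM in YAP5SA libraries 1 to 3, against 2.15, 0, 3.39, 1.58 and 4.70 CPM in Controls 1 to 5. Col4a4, its neighbour on the chromosome, had 688, 328 and 500 CPM in YAP5SA libraries 1 to 3, against 24.5, 20.9, 27.0, 15.3 and 11.2 CPM in Controls 1 to 5. For both genes the groups lie far apart (Col4a3 6.31 ± 0.69, adjusted p = 0.000393 and Col4a4 4.64 ± 0.28, adjusted p = 4.25e-08). Col4a3 overlaps C430014B12Rik on the other strand. Col4a5 rose less (1.12 ± 0.17, adjusted p = 0.000514). Col4a2 rose (1.48 ± 0.22, adjusted p = 0.000432), and so did Col4a1 (1.31 ± 0.28, adjusted p = 0.00705). Among laminin chains, which build the other basement membrane network, Lamc3 rose (5.63 ± 1.00, adjusted p = 0.00203) and Lama4, a chain of vessel and muscle basement membranes, fell (-1.14 ± 0.22, adjusted p = 0.00313). With 1 library dropped, the adjusted p passed 0.05 without YAP5SA 1 for Col4a1 (adjusted p = 0.0502) and without YAP5SA 3 for Col4a1 (adjusted p = 0.147).

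Across all 42 collagen genes 10 were called higher (23.8%) and 2 lower. Col4a1 to Col4a5 and Col15a1, among the 10, were also counted with the basement membrane genes. Col12a1, a collagen that decorates fibrils, had 266, 88.3 and 195 CPM in YAP5SA libraries 1 to 3, against 8.39, 2.48, 3.88, 8.04 and 7.20 CPM in Controls 1 to 5. YAP5SA 2 was the lowest of its group and still far above every Control (5.04 ± 0.42, adjusted p = 1.41e-05). The 2 falls were Col23a1 (-2.02 ± 0.44, adjusted p = 0.00718) and Col24a1 (-1.62 ± 0.37, adjusted p = 0.00950). Of 25 integrins 7 were called (28%), each higher. The laminin receptor subunit Itga3 had 289, 251 and 276 CPM in YAP5SA libraries 1 to 3, against 73.2, 50.7, 113, 93.3 and 91.3 CPM in Controls 1 to 5, without overlap (1.70 ± 0.25, adjusted p = 0.000463). The fibronectin and laminin receptor subunits Itgb1, Itga5, Itgav and Itga7 also rose, with log2 fold changes of 1.26, 1.05, 1.06 and 0.85. Itgax and Itgam, the other 2, are integrins of myeloid cells. Itgax had no count in any Control and 3.64, 1.06 and 15.5 CPM in YAP5SA libraries 1 to 3, at least 31.4-fold over the floor, and Itgam had 5.20, 1.15 and 35.3 CPM in YAP5SA libraries 1 to 3, against 0.522 to 1.82 CPM in Control (3.38 ± 0.68, adjusted p = 0.00467). YAP5SA 3 was the highest library for both, as it was for the macrophage markers below, and the part of such cells in these rises was not tested. Among these calls, the threshold was missed without YAP5SA 3 for Col23a1, Col24a1, Itgam, Itgb1, Itga5, Itgav and Itga7 (adjusted p 0.0612 to 0.267), without YAP5SA 1 for Col24a1, Itgb1, Itga5, Itgav and Itga7 (adjusted p 0.0534 to 0.149), without Control 2 for Itga5 and Itgav (adjusted p 0.0557 to 0.0652), without Control 1 for Itga5 (adjusted p = 0.0882) and without Control 5 for Itgav (adjusted p = 0.0618).

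Of 18 tight junction and polarity genes 6 were called (33.3%), each higher, with a median of 0.74. Jam2, a junctional adhesion molecule, had 59.0, 97.4 and 105 CPM in YAP5SA libraries 1 to 3, against 16.8, 20, 18.6, 9.88 and 12.6 CPM in Controls 1 to 5. There was no overlap (2.50 ± 0.24, adjusted p = 6.29e-06). The kinase Prkci of the polarity complex and the adhesion molecule F11r rose (Prkci 1.48 ± 0.20, adjusted p = 0.000196 and F11r 1.58 ± 0.29, adjusted p = 0.00231), and Pard6b, a partner of Prkci, rose (2.83 ± 0.68, adjusted p = 0.0135). Of 21 cadherin and desmosome genes 2 were called higher (9.52%, against 5.69% of all genes) and 1 lower (4.76%, against 4.17%). Without Controls 1 and 2 the counts were 4 higher and 0 lower. The higher ones were cadherins. N-cadherin Cdh2, the main cadherin of cardiomyocytes, rose (0.78 ± 0.20, adjusted p = 0.0200). M-cadherin Cdh15 of myogenic cells was 313 times as high by summed counts, with a 95% counting interval of 86.2 to 2590. The lower one was desmoplakin Dsp of the desmosome (-0.69 ± 0.20, adjusted p = 0.0314), but at 0.03 with library totals. When 1 library was left out, the call missed the threshold without YAP5SA 1 for Pard6b, Cdh2 and Dsp (adjusted p 0.0619 to 0.136), without YAP5SA 3 for Pard6b, Cdh2 and Dsp (adjusted p 0.0514 to 0.226), without Control 1 for Cdh2 and Dsp (adjusted p 0.0506 to 0.0619) and without Control 2 for Dsp (adjusted p = 0.0546).

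Serpins, inhibitors of proteases, were called in 10 of 25 genes tested (40%), each higher. Serpinh1, the collagen chaperone HSP47, and Serpine2 rose (Serpinh1 1.59 ± 0.34, adjusted p = 0.00932 and Serpine2 2.21 ± 0.48, adjusted p = 0.00929). Serpinb9b, of a family of granzyme inhibitors, had 81.9, 9.82 and 52.8 CPM in YAP5SA libraries 1 to 3, against 0, 0.652, 0.898, 0.807 and 0 CPM in Controls 1 to 5, without overlap (6.85 ± 1.00, adjusted p = 0.00203). It belongs to a cluster of near-identical genes and overlaps Gm36099, so its count is uncertain. Serpina3n was highest in YAP5SA 3, at 14.2 CPM, (8.0 ± 1.37, adjusted p = 0.00149). Annexins, which bind membranes in the presence of calcium, were called in 4 of 10 genes (40%), each higher, with Anxa7 (1.01 ± 0.19, adjusted p = 0.00322) and Anxa4 (1.26 ± 0.29, adjusted p = 0.0103) as examples. Leaving out a single library, calls were lost without YAP5SA 3 for Serpinh1, Serpine2, Serpina3n and Anxa4 (adjusted p 0.0831 to 0.306).

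**Figure D3:**
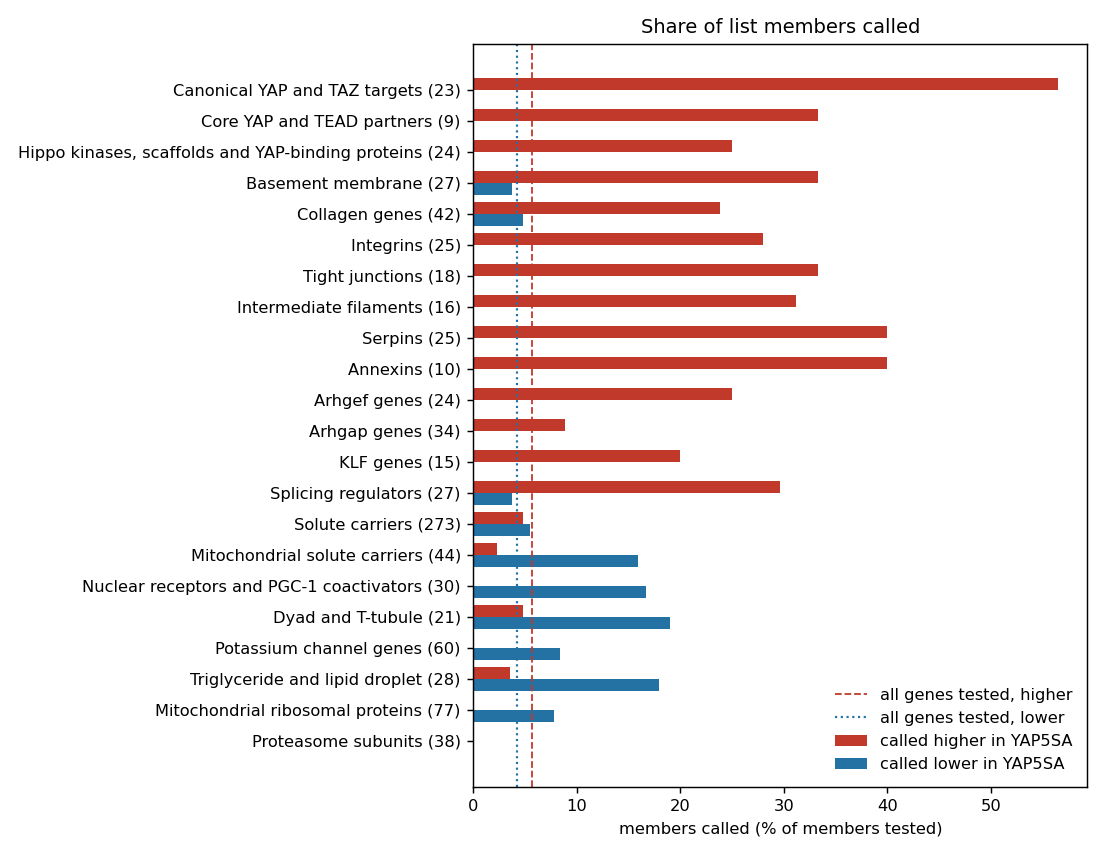
Share of tested members called higher (red) and lower (blue) in YAP5SA for 22 gene lists, with the number tested in brackets. The dashed and dotted lines mark 5.69% and 4.17% of all genes tested; YAP and TAZ targets lead at 56.5% higher, and proteasome subunits are at 0.

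Secreted signals were mixed across families. Of 36 BMP and activin genes 4 were called higher (11.1%, against 5.69% of all genes) and 2 lower (5.56%, against 4.17%). Inhba, the activin A subunit, had 48.2, 31.8 and 36.8 CPM in YAP5SA libraries 1 to 3, against 2.15, 9.0, 3.84, 1.58 and 0.924 CPM in Controls 1 to 5. The groups are well apart, with Control 2 the highest Control (3.46 ± 0.45, adjusted p = 0.000223). The antagonists Fstl3, which binds activins, and Nog, noggin, which binds BMPs, rose (Fstl3 6.03 ± 1.00, adjusted p = 0.00163 and Nog 4.88 ± 0.87, adjusted p = 0.00239) from under 1 CPM in every Control. Of 42 receptor tyrosine kinases and their ligands 5 were called higher (11.9%) and 1 lower (2.38%). The EGF receptor ligands Tgfa and Hbegf rose (Tgfa 5.01 ± 1.08, adjusted p = 0.00692 and Hbegf 2.16 ± 0.55, adjusted p = 0.0291), and so did Igfbp2, which binds insulin-like growth factors (8.33 ± 1.30, adjusted p = 0.00920). Of 48 axon guidance genes 3 were called higher and 3 lower (6.25% each, near the shares of all genes). Sema3e, a semaphorin that signals through plexin D1, had 19.8, 5.81 and 8.87 CPM in YAP5SA libraries 1 to 3, against 0, 0.130, 0.734, 0 and 0.270 CPM in Controls 1 to 5, with no overlap (6.44 ± 1.24, adjusted p = 0.00565). In the NOTCH list 5 of 25 were called higher (20%) and 1 lower (4%), and in the WNT list 5 of 42 were called higher (11.9%) and 1 lower (2.38%). Without Controls 1 and 2 the higher calls numbered 3 in the NOTCH list and 2 in the WNT list. Numbl, a NOTCH antagonist, and Lgr4, a receptor for R-spondins, rose (Numbl 1.44 ± 0.24, adjusted p = 0.00121 and Lgr4 1.22 ± 0.24, adjusted p = 0.00348). In heart hormones, the natriuretic peptide gene Nppb was 699, 105 and 920 CPM in YAP5SA libraries 1 to 3, against 62.0 to 236 CPM in Control, so that YAP5SA 2 lay within the Control range (2.32 ± 0.63, adjusted p = 0.0462). Nppa did not pass (1.26 ± 0.49, adjusted p = 0.125). Ace, the angiotensin-converting enzyme, rose (2.22 ± 0.40, adjusted p = 0.00342). Calls that rest on 1 library were lost without YAP5SA 3 for Fstl3, Nog, Hbegf, Igfbp2, Nppb and Ace (adjusted p 0.0502 to 0.411), without Control 2 for Hbegf and Nppb (adjusted p 0.0612 to 0.0753), without YAP5SA 1 for Hbegf and Nppb (adjusted p 0.0628 to 0.149), without Control 1 for Hbegf (adjusted p = 0.0750), without Control 3 for Nppb (adjusted p = 0.0877), without Control 4 for Nppb (adjusted p = 0.0810) and without Control 5 for Nppb (adjusted p = 0.0842).

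Muscle genes moved in both directions. Skeletal myosin heavy chains are nearly silent in a healthy heart, which uses Myh6 and Myh7. Myh8, the perinatal skeletal form, had 26.5, 60.9 and 37.0 CPM in YAP5SA libraries 1 to 3, against 4.65, 4.96, 2.65, 4.14 and 4.31 CPM in Controls 1 to 5. Every YAP5SA library was far above every Control (3.32 ± 0.33, adjusted p = 1.08e-05). Myh2, the fast oxidative form, had 42.6, 44.9 and 17.5 CPM in YAP5SA libraries 1 to 3, against 0, 0, 1.02, 0.101 and 0.308 CPM in Controls 1 to 5, without overlap (6.65 ± 0.88, adjusted p = 0.00119). Myh1, another fast form, had no count in any Control and 8.10, 8.72 and 5.16 CPM in YAP5SA libraries 1 to 3, at least 34.2-fold over the floor of 3 counts. These genes lie side by side and are near-identical in places, so reads could be split between them, and Myh1 overlaps Myhas. Mybph, a myosin-binding protein of skeletal muscle, rose (6.04 ± 1.00, adjusted p = 0.00131); it overlaps Adora1, which was also called higher. The skeletal calcium channel subunit Cacna1s had 21.9, 19.5 and 19.5 CPM in YAP5SA libraries 1 to 3, against 0, 0, 0, 2.82 and 2.08 CPM in Controls 1 to 5 (4.6 ± 1.05, adjusted p = 0.0218). Of the 10 skeletal muscle markers tested 4 were called higher and 1 lower. Tnnc2 and Myod1 had no count in the 8 libraries, and Pvalb and Myh4 did not pass the filter. The lower one was Ckm, the muscle creatine kinase, with 13, 19.5 and 13.4 CPM in YAP5SA libraries 1 to 3, against 67.7, 43.9, 42.6, 42.8 and 37.7 CPM in Controls 1 to 5 and no overlap (-1.67 ± 0.25, adjusted p = 0.000492). It overlaps A930016O22Rik. Not every call here held when 1 library was dropped: it was lost without YAP5SA 1 for Cacna1s and Adora1 (adjusted p 0.0534 to 0.0650) and without YAP5SA 3 for Cacna1s and Adora1 (adjusted p 0.0926 to 0.325).

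The cardiac myosin Myh6 had 15300, 14600 and 13800 CPM in YAP5SA libraries 1 to 3, against 21300, 18600, 47200, 32800 and 26300 CPM in Controls 1 to 5. All YAP5SA libraries lay below all Controls and close to each other (-0.89 ± 0.28, adjusted p = 0.0491). Myh7, the slow form, did not pass (0.12 ± 0.31, adjusted p = 0.859). Titin, the molecular spring encoded by Ttn, had 3190, 4370 and 2320 CPM in YAP5SA libraries 1 to 3, against 10200, 11800, 10500, 7600 and 6710 CPM in Controls 1 to 5. Its groups do not overlap (-1.55 ± 0.28, adjusted p = 0.00200), and without Controls 1 and 2 and YAP5SA 3 it was at -0.61 (adjusted p = 0.621). Cardiac troponin I, Tnni3, fell (-1.14 ± 0.28, adjusted p = 0.0156), and Tnnt1, the slow skeletal troponin T, had 27.8, 59.3 and 23.8 CPM in YAP5SA libraries 1 to 3, against 183, 132, 136, 227 and 215 CPM in Controls 1 to 5. There YAP5SA 2 was the highest treated library and still below every Control (-2.26 ± 0.31, adjusted p = 0.000226). Smooth muscle actin Acta2, a gene of mural cells and of immature muscle, had 865, 151 and 669 CPM in YAP5SA libraries 1 to 3, against 97.9, 77.6, 68.6, 57.7 and 46.9 CPM in Controls 1 to 5. YAP5SA 2 was far below the other treated libraries and still above every Control (3.03 ± 0.52, adjusted p = 0.00511). In bulk nuclei, fewer cells of a type and less RNA per cell cannot be told apart. With 1 library dropped, the adjusted p passed 0.05 without YAP5SA 3 for Myh6, Tnni3 and Acta2 (adjusted p 0.0556 to 0.252), without Control 1 for Myh6 and Tnni3 (adjusted p 0.0567 to 0.0626), without YAP5SA 1 for Myh6 and Tnni3 (adjusted p 0.0861 to 0.10), without Control 4 for Myh6 (adjusted p = 0.0787) and without Control 5 for Myh6 (adjusted p = 0.0518).

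**Figure D4:**
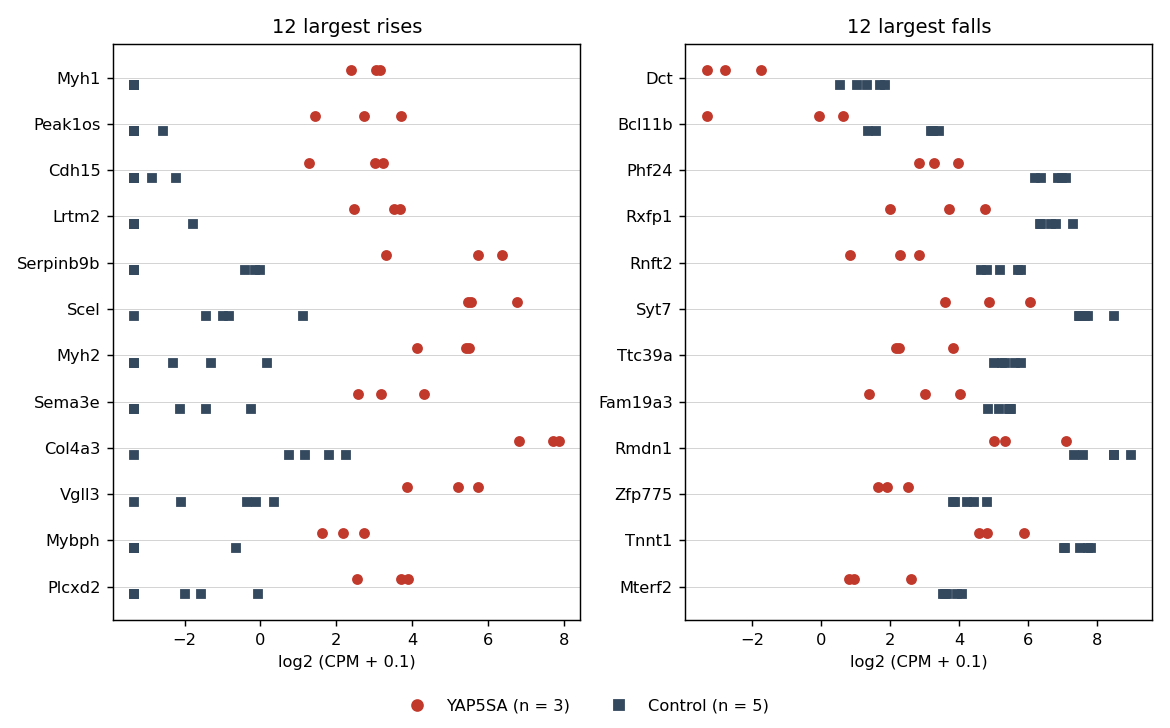
Log2 (CPM + 0.1) of the 12 largest named rises and falls in each library, with YAP5SA as red circles above and Control as dark squares below each line. In every row the 3 YAP5SA libraries and the 5 Controls are separate, and Controls of the rises lie mostly at or near 0.

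The other large rises were of varied function. Peak1os, a noncoding transcript opposite Peak1, had 2 counts in the Controls together and was 369 times as high in YAP5SA by summed counts, with an interval of 102 to 3060. These intervals and floors cover counting error only. Lrtm2, a leucine-rich repeat membrane protein, and Plcxd2 rose (Lrtm2 7.77 ± 0.89, adjusted p = 0.000102 and Plcxd2 5.84 ± 0.70, adjusted p = 6.20e-05). Eif1a, a factor of translation start, had 80.5, 81.4 and 64.6 CPM in YAP5SA libraries 1 to 3, against 7.59, 7.43, 6.41, 5.95 and 5.24 CPM in Controls 1 to 5. Both groups stayed within narrow ranges (3.54 ± 0.23, adjusted p = 7.97e-08). Wsb1, a substrate receptor of a ubiquitin ligase, had 944, 618 and 664 CPM in YAP5SA libraries 1 to 3, against 284, 348, 224, 310 and 259 CPM in Controls 1 to 5 (1.32 ± 0.18, adjusted p = 0.000239). Rhbdf1, the inactive rhomboid iRhom1 that escorts the shedding protease ADAM17, rose (0.93 ± 0.16, adjusted p = 0.00158), as did Ddb1, the adaptor of CUL4 ubiquitin ligases (0.77 ± 0.16, adjusted p = 0.00599). The imprinted zinc finger gene Peg3 rose (1.33 ± 0.27, adjusted p = 0.00526) although Control 3, at 729 CPM, lay above YAP5SA 3, at 716 CPM. Peg3 was not called without Controls 1 and 2 (1.21, adjusted p = 0.0635). Wt1, an epicardial and developmental factor, had 85.1, 75.8 and 39.5 CPM in YAP5SA libraries 1 to 3, against 15.1, 14.2, 14, 10.3 and 10.9 CPM in Controls 1 to 5, without overlap (2.31 ± 0.27, adjusted p = 5.07e-05).

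RNA-binding and transcription factors also moved. Of 27 splicing regulators 8 were called higher (29.6%) and 1 lower, and 4 were called higher without Controls 1 and 2. Srsf2 and Ptbp1, which is low in mature muscle, rose (Srsf2 1.81 ± 0.27, adjusted p = 0.000442 and Ptbp1 1.43 ± 0.24, adjusted p = 0.00147); both overlap other genes. The neuronal splicing factor Nova1 was the lower one (-1.07 ± 0.27, adjusted p = 0.0159). Of 15 KLF genes 3 were called, each higher. Klf4, a zinc finger factor of stem cells and epithelia, had 65.9, 32.5 and 53.2 CPM in YAP5SA libraries 1 to 3, against 10.4, 13.7, 9.43, 6.09 and 14 CPM in Controls 1 to 5 (2.20 ± 0.28, adjusted p = 0.000102). Of the 33 cell death regulators 5 were called, and 9 without Controls 1 and 2, each higher, among them both pro-death Bax (1.06 ± 0.18, adjusted p = 0.00165) and pro-survival Mcl1 (0.94 ± 0.19, adjusted p = 0.00506), and the p53 target Cdkn1a rose (1.42 ± 0.36, adjusted p = 0.0179) while Mdm2 did not pass (0.19 ± 0.18, adjusted p = 0.538). Among these calls, the threshold was missed without YAP5SA 3 for Nova1, Mcl1 and Cdkn1a (adjusted p 0.117 to 0.130), without YAP5SA 1 for Nova1 and Cdkn1a (adjusted p 0.0925 to 0.139) and without Control 1 for Cdkn1a (adjusted p = 0.0593).

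The series title ties YAP to metabolism. Nutrient carriers were mixed: of 273 solute carriers 13 were called higher and 15 lower, close to the shares of all genes. The glucose carrier Slc2a1, or GLUT1, which the fetal heart uses, had 126, 15.9 and 62.9 CPM in YAP5SA libraries 1 to 3, against 9.52, 1.43, 8.0, 10.7 and 9.17 CPM in Controls 1 to 5. YAP5SA 2 was the lowest treated library and the groups do not overlap (3.33 ± 0.63, adjusted p = 0.00711). The leucine carrier Slc7a5 and the glutamate carrier Slc1a3 rose (Slc7a5 3.21 ± 0.48, adjusted p = 0.000463 and Slc1a3 1.99 ± 0.33, adjusted p = 0.00128). Of 44 mitochondrial carriers 7 were called lower (15.9%) and 1 higher, with a median of -0.27, or 0.39 with library totals against 0.69 for all genes, and 4 were called lower without Controls 1 and 2. The aspartate-glutamate carrier Slc25a12 had 178, 200 and 104 CPM in YAP5SA libraries 1 to 3, against 337, 269, 385, 388 and 337 CPM in Controls 1 to 5. All YAP5SA libraries were below all Controls (-1.16 ± 0.22, adjusted p = 0.00341). The phosphate carrier Slc25a3 fell as well (-0.62 ± 0.18, adjusted p = 0.0358) but at 0.03 with library totals. When 1 library was left out, the call missed the threshold without Control 1 for Slc25a3 (adjusted p = 0.0619), without Control 4 for Slc25a3 (adjusted p = 0.0648), without YAP5SA 1 for Slc25a3 (adjusted p = 0.0677) and without YAP5SA 3 for Slc25a3 (adjusted p = 0.210).

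Regulators of oxidative metabolism fell in part. Of 30 nuclear receptors and PGC-1 coactivators 5 were called (16.7%), each lower, and 3 were called lower without Controls 1 and 2. Their median was -0.40, or 0.31 with library totals against 0.69 for all genes. Esrra, the estrogen-related receptor alpha that drives mitochondrial genes, had 136, 274 and 126 CPM in YAP5SA libraries 1 to 3, against 359, 349, 451, 373 and 411 CPM in Controls 1 to 5. The groups are apart (-1.19 ± 0.24, adjusted p = 0.00480). The retinoid receptor gene Rxrg fell further (-2.18 ± 0.39, adjusted p = 0.00267), and the glucocorticoid receptor gene Nr3c1 fell with overlap (-1.19 ± 0.26, adjusted p = 0.00836). Of 28 triglyceride and lipid droplet genes 5 were called lower (17.9%) and 1 higher. Dgat2, which makes triglyceride, had 3.99, 6.56 and 6.57 CPM in YAP5SA libraries 1 to 3, against 15.5, 25.8, 31.5, 15.3 and 21.3 CPM in Controls 1 to 5, without overlap (-1.91 ± 0.32, adjusted p = 0.00118). G0s2, an inhibitor of triglyceride lipase, fell (-1.43 ± 0.26, adjusted p = 0.00230). Of 77 mitochondrial ribosomal protein genes 6 were called, each lower (7.79%, against 4.17% of all genes). Without Controls 1 and 2, 4 of them were called lower, where 4.75% of all genes were. Mterf2, a factor of mitochondrial gene expression, was among the 12 largest falls (-2.24 ± 0.42, adjusted p = 0.00267). Ndufv1 of respiratory complex I and the muscle enolase Eno3 fell (Ndufv1 -1.11 ± 0.22, adjusted p = 0.00398 and Eno3 -1.58 ± 0.28, adjusted p = 0.00200). Pdk4, which curbs pyruvate entry, was higher in all YAP5SA libraries than in all Controls but did not pass (1.56 ± 0.84, adjusted p = 0.291). Leaving out a single library, calls were lost without YAP5SA 3 for Esrra and Nr3c1 (adjusted p 0.0581 to 0.0645) and without YAP5SA 1 for Nr3c1 (adjusted p = 0.0577).

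Among electrical genes, 5 of 60 potassium channel genes were called (8.33%), each lower. Their median was -0.36, -0.26 with genes at 0 in 1 group set to their bound, and 0.28 with library totals against 0.69 for all genes. Kcnk3, the TASK-1 background channel of atrial muscle, had 11.2, 12.6 and 16.1 CPM in YAP5SA libraries 1 to 3, against 49.2, 67.7, 35.8, 44.3 and 41.6 CPM in Controls 1 to 5. No YAP5SA library reached the Control range (-1.84 ± 0.25, adjusted p = 0.000212). The small-conductance channel Kcnn2 fell (-1.71 ± 0.37, adjusted p = 0.00700). Of 21 dyad and T-tubule genes, which couple the membrane signal to calcium release, 4 were called lower (19%) and 1 higher. Their median was -0.37, or 0.27 with library totals against 0.69 for all genes. Asph, whose products include junctin, had 82.7, 97.8 and 74.2 CPM in YAP5SA libraries 1 to 3, against 172, 143, 252, 182 and 242 CPM in Controls 1 to 5 (-1.18 ± 0.21, adjusted p = 0.00195). The L-type channel Cacna1c fell (-0.88 ± 0.25, adjusted p = 0.0337), with -0.11 under library totals. The one higher was caveolin-3, Cav3 (1.59 ± 0.29, adjusted p = 0.00277). In adrenergic and cAMP signalling 3 of 38 were called higher (7.89%, against 5.69% of all genes) and 5 lower (13.2%, against 4.17%). Without Controls 1 and 2 the counts there were 3 higher and 2 lower. The receptor kinase Grk5 rose (2.81 ± 0.46, adjusted p = 0.00195) and the phosphodiesterase Pde4a fell (-0.92 ± 0.23, adjusted p = 0.0160). Calls that rest on 1 library were lost without YAP5SA 3 for Kcnn2, Cacna1c and Cav3 (adjusted p 0.0512 to 0.261), without YAP5SA 1 for Cacna1c and Pde4a (adjusted p 0.0776 to 0.0946), without Control 1 for Cacna1c (adjusted p = 0.0526) and without Control 2 for Cacna1c (adjusted p = 0.0683).

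Phf24, a PHD finger gene known from the brain, was among the 12 largest falls, with 15.6, 9.64 and 7.02 CPM in YAP5SA libraries 1 to 3, against 118, 82.9, 73.8, 138 and 128 CPM in Controls 1 to 5. Every Control was far above the highest YAP5SA library, YAP5SA 1 (-3.36 ± 0.30, adjusted p = 2.88e-06). Rxfp1, the receptor for the hormone relaxin, had 12.9, 26.9 and 3.91 CPM in YAP5SA libraries 1 to 3, against 102, 82.7, 81.9, 159 and 112 CPM in Controls 1 to 5, without overlap (-3.20 ± 0.59, adjusted p = 0.00654). Syt7, a calcium sensor of vesicle fusion, had 29.3, 66.8 and 11.9 CPM in YAP5SA libraries 1 to 3, against 178, 182, 360, 200 and 215 CPM in Controls 1 to 5. Control 3 was the highest and YAP5SA 2 the highest of the treated libraries, with no overlap (-2.77 ± 0.49, adjusted p = 0.00421). It overlaps Gm26859. Dct, an enzyme of melanin synthesis, had 0.196, 0.0440 and 0 CPM in YAP5SA libraries 1 to 3, against 1.36, 3.52, 2.41, 1.95 and 3.20 CPM in Controls 1 to 5 (-4.65 ± 0.87, adjusted p = 0.00294). Bcl11b, a zinc finger factor of T cells and neurons, fell as well (-4.19 ± 0.86, adjusted p = 0.00560). Rnft2, Ttc39a, Fam19a3, Rmdn1 and Zfp775 complete the 12 largest falls, with log2 fold changes of -3.07, -2.58, -2.44, -2.42 and -2.29. In fits with library totals these 5 genes were still called lower, as were Phf24, Rxfp1, Syt7, Dct, Bcl11b and Tnnt1, whereas Mterf2 was not (adjusted p = 0.0774).

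The 8 abundant falls were smaller, with log2 fold changes of -1.58 to -1.11. Speg, a kinase of striated muscle, had 803, 1080 and 717 CPM in YAP5SA libraries 1 to 3, against 1890, 2070, 1830, 2130 and 1870 CPM in Controls 1 to 5. Controls spanned a narrow range and every YAP5SA library lay below it (-1.2 ± 0.19, adjusted p = 0.000794). Itgb1bp2, which encodes melusin, a muscle protein that binds integrin beta-1, had 258, 333 and 233 CPM in YAP5SA libraries 1 to 3, against 772, 670, 755, 623 and 456 CPM in Controls 1 to 5 (-1.32 ± 0.21, adjusted p = 0.000865). Naca, a ribosome-associated chaperone with a large muscle isoform, fell (-1.25 ± 0.23, adjusted p = 0.00255), and so did the exporter Abcc5 (-1.21 ± 0.22, adjusted p = 0.00237) and Ndrg4, a cytoplasmic protein (-1.40 ± 0.27, adjusted p = 0.00310). With library totals the log2 fold changes of the 8 abundant falls were -0.91 to -0.44, and each missed the threshold. The factor Mitf (-1.67 ± 0.26, adjusted p = 0.000691) and Sox4 (-2.15 ± 0.48, adjusted p = 0.00877) fell among transcription factors, and the methylcytosine oxidase gene Tet1 had 6.06, 21.4 and 2.00 CPM in YAP5SA libraries 1 to 3, against 45.8, 30, 32.1, 28.9 and 28.2 CPM in Controls 1 to 5, without overlap (-2.17 ± 0.49, adjusted p = 0.0143). Smarca4, the BRG1 ATPase, was lower (-0.67 ± 0.17, adjusted p = 0.0195) but at 0.02 with library totals. Not every call here held when 1 library was dropped: it was lost without YAP5SA 1 for Sox4, Tet1 and Smarca4 (adjusted p 0.0555 to 0.0719) and without YAP5SA 3 for Sox4 and Smarca4 (adjusted p 0.0808 to 0.162).

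Some families had no call, and others are given beside the 5.69% of all genes tested called higher and the 4.17% called lower. Of 38 proteasome subunits edgeR called 0, with 4 higher at an unadjusted p under 0.05 and 1 called higher by DESeq2, but without Controls 1 and 2 it called 8, each higher (against 6.73% of all genes). Of 22 dual-specificity phosphatases it called 0, with 2 higher at an unadjusted p under 0.05 and 0 called by DESeq2. Called higher and lower were 2 and 2 of 37 kinesins (5.41% each) and 14 and 13 of 352 zinc finger genes (3.98% and 3.69%). The counts were 1 and 2 of 21 circadian clock genes (4.76% and 9.52%) and 1 and 2 of 30 sterol synthesis genes (3.33% and 6.67%). Without Controls 1 and 2 the counts were 2 and 4 for kinesins, 8 and 21 for zinc finger genes, 0 and 3 for clock genes and 1 and 1 for sterol synthesis.

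Markers of other cell types were read beside these changes. Macrophage markers summed to 188, 87.1 and 1037 CPM in YAP5SA libraries 1 to 3, against 86.5, 201, 53.9, 101 and 107 CPM in Controls 1 to 5. YAP5SA 3 thus stood far above all other libraries, and 1 of 12 markers, Mrc1, was called (1.80 ± 0.44, adjusted p = 0.0221), with a median of 1.76 over the 12. DESeq2 called 4 higher and limma-voom 6, and without Controls 1 and 2 edgeR called 7 higher, with a median of 2.63. Fibroblast markers summed to 3347 CPM in YAP5SA 3 and 1380 to 2332 CPM in the other 7 libraries, and 1 of 12 was called higher, or 3 without Controls 1 and 2. Mural cell markers summed to 764 to 1545 CPM in YAP5SA and 552 to 748 CPM in Control, with Acta2 and Mcam called higher of 10. Epicardial markers summed to 188 to 218 CPM in YAP5SA and 106 to 163 CPM in Control, and 3 of 10 were called higher (Wt1, Krt19 and Tbx18) and 1 lower (Muc16). Endothelial markers summed to 374 to 517 CPM in YAP5SA and 478 to 1217 CPM in Control, and 4 of 12 were called, each lower, among them the receptors Tek and Kdr (Tek -1.13 ± 0.25, adjusted p = 0.00799 and Kdr -1.04 ± 0.30, adjusted p = 0.0363). Controls 1 and 2 alone held the higher endothelial sums, 875 and 1217 CPM, against 478 to 610 CPM in Controls 3 to 5. Without these 2 libraries 1 of 12 endothelial markers was called lower, and their median was -0.30, against -0.80 with all libraries. All markers of these 5 types had counts somewhere in the 8 libraries, though 1 of the 10 mural markers had no count in 1 group. Cardiomyocyte markers were called lower in 3 of 12 (Ttn, Tnni3 and Myh6), with a median of -0.45, or 0.20 with library totals against 0.69 for all genes. The part of other cell types in the rises of Acta2, Wt1, Krt19, the collagens and the serpins was not tested. With 1 library dropped, the adjusted p passed 0.05 without YAP5SA 1 for Kdr, Muc16 and Tbx18 (adjusted p 0.0528 to 0.113), without YAP5SA 3 for Mrc1, Tek and Kdr (adjusted p 0.0957 to 0.306), without Control 2 for Kdr (adjusted p = 0.115), without Control 3 for Mrc1 (adjusted p = 0.0504), without Control 4 for Mrc1 (adjusted p = 0.0515) and without Control 5 for Mrc1 (adjusted p = 0.0513).

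**Figure D5:**
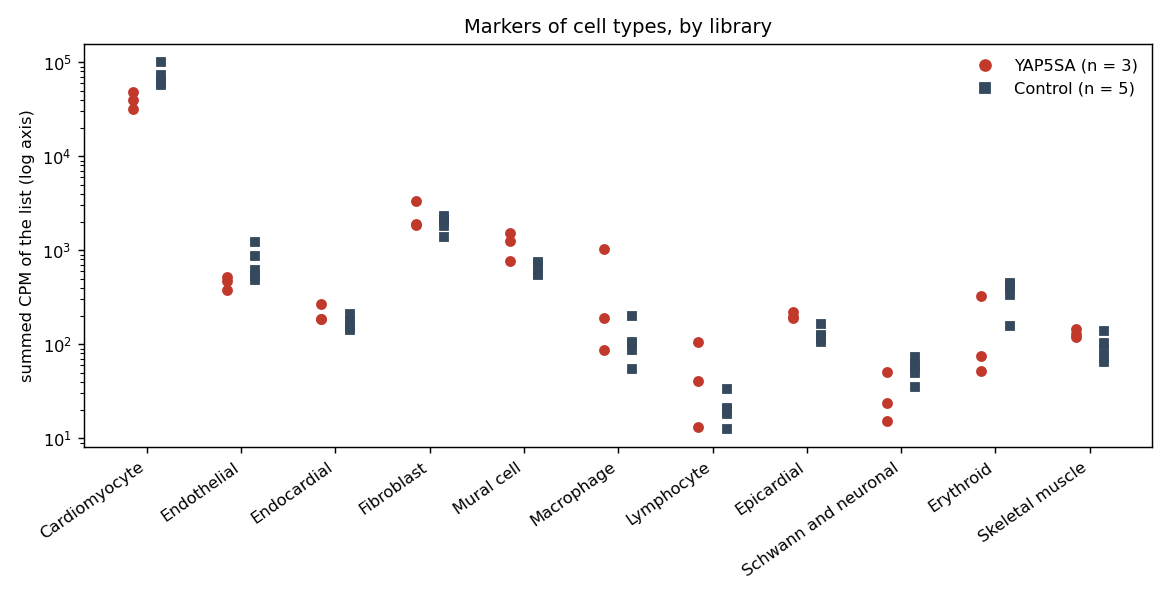
Summed CPM of marker lists (log axis) in each library, with YAP5SA as red circles left and Control as dark squares right. Cardiomyocyte sums lie lower in YAP5SA (32260 to 48020 CPM) than in Control (57800 to 100100 CPM), and macrophage markers reach 1037 CPM in YAP5SA 3.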

How the data were processed

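The deposited values are raw read counts, whole numbers for each Ensembl ID in 14 libraries. STAR, limma and edgeR and build GRCm38 are named in the submitters' processing notes; versions, the counting program, annotation release and strand setting are not given in the sources used here. The libraries are non-directional per the labels' protocols, so reads of overlapping genes cannot be told apart. Besides pairs named in the report, this touches Srsf2, Ptbp1, Nppa, Myh7, Spry1, Itgav, Tbx18, Capn2, Fstl3, Lamc3, Cacna1s, Itgam, Arhgef26, Ace, Cdkn1a, Bax, Ddb1, Asph, Kcnk3, Sox4, Fam19a3, Mterf2, Zfp775 and Dsp.

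Counts were filtered with filterByExpr (minimum count 10), scaled by TMM and fitted with edgeR 4.0.16 in R 4.3.3 on terms for group and batch. All 14 libraries entered, so those with MEF2A add to the spread estimate (biological coefficient of variation 0.503). YAP5SA was contrasted with Control by the quasi-likelihood F-test, two-sided, with Benjamini-Hochberg adjustment over all 17987 genes. Each SE was worked back from that test, as the log2 fold change without its sign over the square root of the F statistic. CPM use TMM-scaled library sizes. Symbols and overlaps came from GENCODE annotation. The procedure was tested on simulated counts, which held no batch effect. It recovered 29% of genes changed by 1 on the log2 scale and 90% of those changed by 2. Of its 117 calls 6 were false. A gene that did not pass can thus still have changed.

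Genes were named by rule: the 12 largest rises and falls with mean log2 CPM of at least 1 and the 8 of highest mean CPM each way, called in all 8 fits that drop 1 library; up to 3 called members a list; and YAP, TEAD and partners. Ankrd1, Ccn1, Ccn2, Ajuba, Fat1, Slc2a1, Acta2, Myh6, Myh7, Nppa, Pdk4, Cdkn1a, Mdm2, Capn12, Adora1, Serpine2, Col4a1, Col4a5, Cav3, Tbx18, Wtip, Stk4, Col23a1, Col24a1, Itgb1, Itga5, Itgav, Itga7, Pard6b, Serpinh1, Hbegf, Nova1 and Muc16 were chosen after their values were seen. Some genes the rule named are not reported here. Members and lists were chosen with earlier results of these data known, so lists got counts and medians and no test. Lists overlap, so a gene can count in several of them. Alternatives were other scalings, filters, tests (DESeq2 1.42.0, limma 3.58.1), terms and left-out libraries.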

Additional observations from a re-analysis of the deposited data

Results flagged for a closer look

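For the 164 genes named in the text, the 5 Controls were searched for 1 library far from the other 4, and it was found for 22 genes. Chance gives this in about 1 in 20 groups of normally distributed values. That rate does not hold for genes near 0 counts, such as Peak1os and Serpina3n with 2 Control counts each. There a count in 1 library alone sets it apart, so the 22 genes are not compared with that rate. Control 2 stood low for Col4a3 (0 CPM), Slc2a1 (1.43 CPM), Ajuba (15.1 CPM), Wtip (29.7 CPM) and Anxa7 (50.1 CPM) and high for Mrc1 (33.5 CPM). Control 3 stood high for Peg3 (729 CPM), Syt7 (360 CPM), Grk5 (14.5 CPM), Lmna (59.2 CPM) and Krt80 (0.530 CPM) and low for Plekhg2 (103 CPM) and Gja3 (10.3 CPM). Control 1 stood high for Ckm (67.7 CPM) and Tet1 (45.8 CPM) and low for Stk4 (4.31 CPM). Control 4 was the Control with counts for Igfbp2 (0.941 CPM), Mybph (0.538 CPM), Peak1os (0.0672 CPM) and, for the most part, Tgfa (0.706 CPM), and Control 5 for Lrtm2 (0.193 CPM) and Serpina3n (0.0770 CPM). Groups of 3 libraries were not searched. Controls 1 and 2 hold the large shares of mitochondrially encoded counts, and their part in these values was not tested.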

How the results depend on the processing

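Of 1773 calls, 1023 higher and 750 lower, library totals in place of TMM gave 1703 higher and 33 lower, DESeq2 2881 calls with 1406 lower, the fit of the 8 YAP5SA and Control libraries alone 702 (456 higher, 246 lower), and the fit without Controls 1 and 2 and YAP5SA 3 75 (57 and 18). Batch 2 alone, with 1 YAP5SA library whose spread is taken from the other groups, gave 1240 lower calls. Leaving out 1 library gave 544 to 2998 calls, 383 to 1458 higher and 161 to 1540 lower, and YAP5SA 3 and YAP5SA 2 set these bounds. The other alternatives stayed within 1.5 times: batch 1 alone gave 1518 calls, a sex term 2115 and no batch term 1773 (1048 higher, 725 lower). The replicate block in place of batch gave 938 (555 higher, 383 lower); the numbers do not pair the samples, since deviations of same-numbered libraries correlated at -0.020, -0.129 and -0.184. With library totals 3 named genes changed sign: Dsp (0.03), Slc25a3 (0.03) and Smarca4 (0.02). Library totals without mitochondrially encoded genes were tried after the data were seen (2059 calls). The cause of these shifts was not tested. Depth limits genes near 1 CPM, where 3 counts in a Control library amount to 0.214 CPM on average.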

Other observations

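Further families held calls too, given here beside the 5.69% of all genes tested called higher and the 4.17% called lower. Of 23 genes of the ADAMTS family, secreted proteases of the matrix and their relatives, 4 were called higher (17.4%) and 1 lower. Adamtsl3 had 63.3, 64.3 and 29.1 CPM in YAP5SA libraries 1 to 3, against 5.44, 0.782, 10.3, 7.63 and 4.24 CPM in Controls 1 to 5. All YAP5SA libraries lay above all Controls (3.25 ± 0.54, adjusted p = 0.00267). Among 32 genes of muscle protein turnover 3 were called higher and 4 lower (2 lower without Controls 1 and 2), with the ubiquitin ligase subunit gene Asb2 lower (-1.19 ± 0.25, adjusted p = 0.00647) and the calpain gene Capn2 higher (0.79 ± 0.17, adjusted p = 0.00638). Of 11 septins, which form filaments below the membrane, Sept8 was called higher (0.88 ± 0.16, adjusted p = 0.00262) and Sept6 and Sept4 lower (Sept6 -1.86 ± 0.35, adjusted p = 0.00294 and Sept4 -0.81 ± 0.25, adjusted p = 0.0469), and without Controls 1 and 2 the septin counts were 2 higher and 1 lower. Of 25 FGF genes Spry1, a feedback inhibitor of FGF signalling, and the decoy receptor gene Fgfrl1 were higher (Spry1 1.18 ± 0.21, adjusted p = 0.00176 and Fgfrl1 0.81 ± 0.23, adjusted p = 0.0310) and the ligand gene Fgf9 lower (-1.39 ± 0.42, adjusted p = 0.0475). Of the 22 conduction and gap junction genes the pacemaker channel gene Hcn2 and the connexin gene Gja3 were lower (Hcn2 -1.26 ± 0.38, adjusted p = 0.0459 and Gja3 -1.68 ± 0.41, adjusted p = 0.0178), each with YAP5SA 2 inside the Control range. When 1 library was left out, the call missed the threshold without YAP5SA 3 for Asb2, Capn2, Sept4, Fgf9, Hcn2 and Gja3 (adjusted p 0.0564 to 0.299), without YAP5SA 1 for Sept4, Fgfrl1, Fgf9, Hcn2 and Gja3 (adjusted p 0.0723 to 0.212), without Control 1 for Sept4, Fgfrl1, Fgf9 and Hcn2 (adjusted p 0.0867 to 0.141), without Control 4 for Sept4, Fgf9 and Hcn2 (adjusted p 0.0606 to 0.0664), without Control 2 for Sept4 and Hcn2 (adjusted p 0.0505 to 0.0613), without Control 3 for Sept4 and Fgf9 (adjusted p 0.0517 to 0.0682), without Control 5 for Fgf9 and Hcn2 (adjusted p 0.0611 to 0.0651) and without YAP5SA 2 for Fgfrl1 (adjusted p = 0.0509).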
